A study of Mus musculus with 12 samples.

Results

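The collagen chain genes of the mouse genome encode the subunits of the collagen proteins, and they were taken as every row of the expression table whose gene symbol is Col, a number, the letter a and a number. This gave 42 of the 17052 genes in the table. Messenger RNA had been sequenced from the left ventricle of 12 C57BL/6 mice in 4 groups of 3, each library from a separate mouse operated on at 8 weeks of age and sampled at 12 weeks. Sham+control mice had the operation without the aortic clip and no drug, and TAC+control mice had the arch of the aorta narrowed with a clip (transverse aortic constriction, TAC), which raises the pressure the left ventricle works against, and no drug. Sham+pimobendan and TAC+pimobendan mice had the same operations and were given pimobendan, a calcium sensitizer and phosphodiesterase inhibitor, by mouth at 1 mg per kg per day for 4 weeks. The labels name no vehicle for the controls and no genetic change in any group. The study asked how the drug acts on the transcripts of the pressure-loaded heart.

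Collagens are trimers of chains wound into a long helix. In the heart, fibroblasts make the fibrillar collagens I, III and V of the interstitial matrix, while myocytes, endothelial cells and mural cells rest on basement membranes built on a network of collagen IV. Further families join these layers: collagen VI forms beaded filaments beside the cells, multiplexins (collagens XV and XVIII) sit where basement membrane meets fibrils, and FACITs (fibril-associated collagens with interrupted helices) coat the fibril surface. Growth of fibrillar collagen is a known feature of pressure-overloaded hearts.

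Expression is given in FPKM (fragments mapped to a gene, scaled to its transcript length and to the library's mapped fragments), as the authors deposited it. The table holds no counts, so the sequencing depth is unknown and no counting interval can be given. Of the 42 chains, 20 reached 1 FPKM in at least 3 libraries and were tested with the other genes that did so, 11415 in all. The other 22 were not tested, and 21 of them stayed under 1 FPKM in every library. All 12 libraries gave between 10809 and 11292 genes at 1 FPKM or more. Markers of heart muscle dominated, with 10 cardiomyocyte genes summing to between 55141 and 69008 FPKM per library, and all 15 fibroblast markers were measured, at sums of 1130 to 1417 FPKM. None of 4 genes that mark hypertrophy passed the test in the TAC comparison without drug. Acta1, the skeletal actin gene, had a log2 fold change of 1.32 (95% interval 0.026 to 2.61; unadjusted p = 0.0461, limma adjusted p = 0.593), Myh7 (beta myosin) 0.30 (adjusted p = 0.944), Nppb (brain natriuretic peptide) 0.25 (adjusted p = 0.856) and Nppa (atrial natriuretic peptide) -0.52 (adjusted p = 0.699).

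A pair of libraries stood apart in collagen. Sham+pimobendan replicate 2 held the highest value of 16 of the 20 tested chains, and TAC+pimobendan replicate 3 the lowest value of 11. Summed over all 42 chains, FPKM came to 396, 260.5 and 389 in Sham+control, 304, 598 and 469 in Sham+pimobendan, 331, 280.1 and 268 in TAC+control, with 351, 277 and 217 in TAC+pimobendan. The ranges of the 4 groups overlapped, and the largest sum was 598 in a sham mouse on the drug. Group means were 348 ± 76.3 FPKM (SD, n = 3), 457 ± 147, 293 ± 33.3 and 282 ± 66.6 in the same order. The mean of Sham+pimobendan was 1.31 times that of Sham+control, with a range of 1.11 (without Sham+pimobendan replicate 2) to 1.53 (without Sham+pimobendan replicate 1) when 1 library was left out. In bulk tissue such as this, fewer cells of a type and less RNA per cell cannot be told apart.

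**Figure D1:**
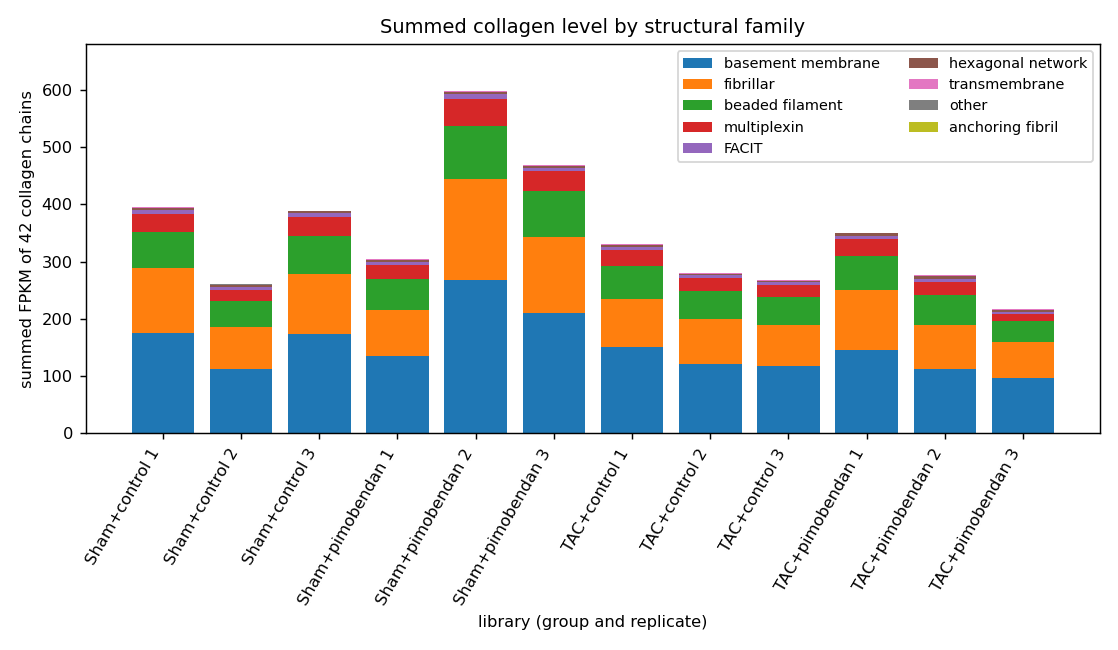
Bars give the summed FPKM of the 42 collagen chains in each of the 12 libraries (vertical axis, FPKM; horizontal axis, group and replicate), stacked by structural family. The sums run from 217 to 598 FPKM, and basement membrane chains make up 40.8% to 45.5% of every bar.

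The 4 largest families held similar shares of the collagen transcripts in every library. Basement membrane chains took 40.8% to 45.5% of the summed FPKM, fibrillar chains 25.3% to 29.6%, beaded filament chains 15.7% to 18.8% and multiplexins 5.44% to 8.61%. Smaller families varied more in proportion, with the hexagonal network chains at 0.617% to 1.83% and the transmembrane chains at 0.150% to 0.497%. Col4a1 was the highest chain in 12 of 12 libraries and Col4a2 the second highest in all 12. Col6a1, Col3a1, Col1a2, Col15a1, Col6a2 and Col1a1 filled the ranks from 3 to 8 in changing order, and those 8 chains together held 83.5% to 89.5% of the sum. Col5a1 ranked 9 or 10. Below it the order changed between libraries, and Col5a3, for instance, ranked between 11 and 17. Col20a1, Col4a4 and Col6a6 never ranked higher than 18.

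Type IV collagen, the basement membrane network, was represented by its ubiquitous chains Col4a1 (NCBI Gene 12826; GRCm38 chromosome 8, 11198423 to 11312889) and Col4a2 (NCBI Gene 12827; GRCm38 chromosome 8, 11312805 to 11449287), whose products combine in the same trimer. Their annotated RefSeq spans on chromosome 8 overlap by 85 bases, and the genes run in opposite directions from there. Col4a1 had 95.04, 56.44 and 92.3 in Sham+control, 67.52, 147.53 and 116.16 in Sham+pimobendan, 80.95, 60.8 and 59.98 in TAC+control, with 75.18, 57.57 and 47.31 in TAC+pimobendan (FPKM). Col4a2 had 71.09, 49.06 and 74.18 in Sham+control, 58.57, 110.77 and 85.41 in Sham+pimobendan, 62.61, 52.51 and 49.74 in TAC+control, with 62.6, 46.33 and 41.02 in TAC+pimobendan. Both were highest in Sham+pimobendan replicate 2 and lowest in TAC+pimobendan replicate 3, and no group lay apart from the other groups. The ratio of Col4a1 to Col4a2 stayed between 1.15 and 1.36 in all 12 libraries, while Col4a1 itself varied 3.12-fold.

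The other basement membrane chains, better known from the kidney filter and from smooth muscle, were low. Col4a5 (NCBI Gene 12830; GRCm38 chromosome X, 141475370 to 141689236) had the steadiest level of any tested chain, from 5.36 FPKM in TAC+control replicate 1 to 7.26 in TAC+pimobendan replicate 3, a 1.35-fold range. Its neighbour Col4a6, which lies 1274 bases away on chromosome X, stayed between 0.15 and 0.35 FPKM. Col4a4 (NCBI Gene 12829; GRCm38 chromosome 1, 82448419 to 82587034) ranged from 0.68 to 1.54 FPKM and was tested, whereas Col4a3, which overlaps it by 114 annotated bases, ranged from 0.28 to 0.63 and was not. Col4a4 exceeded Col4a3 1.58- to 3.25-fold in each library.

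Among the fibrillar chains, Col1a1 (NCBI Gene 12842; GRCm38 chromosome 11, 94936224 to 94953042) and Col1a2 (NCBI Gene 12843; GRCm38 chromosome 6, 4505618 to 4541543) encode type I collagen, the stiff fibril of tendon, bone and scar, and Col3a1 (NCBI Gene 12825; GRCm38 chromosome 1, 45311538 to 45349706) encodes type III, the more compliant fibril mixed with it in the heart. Col1a1 had 22.25, 14.9 and 22.78 in Sham+control, 15.92, 35.9 and 28.43 in Sham+pimobendan, 17.5, 17.48 and 14.27 in TAC+control, with 22.22, 14.96 and 12.94 in TAC+pimobendan (FPKM). Col1a2 had 33.56, 25.47 and 29.33 in Sham+control, 24.32, 40.2 and 30.57 in Sham+pimobendan, 24.23, 29.03 and 26.02 in TAC+control, with 27.15, 25.28 and 22.09 in TAC+pimobendan. Col3a1 had 40.78, 20.54 and 36.05 in Sham+control, 24.75, 73.38 and 50.48 in Sham+pimobendan, 25.83, 19.1 and 18.8 in TAC+control, with 37.43, 23.82 and 15.29 in TAC+pimobendan. In each of the 3 genes the groups overlapped, and Sham+pimobendan spread the widest: its Col3a1 values ran from 24.8 to 73.4 FPKM, more than the whole range of the TAC+control group, 18.8 to 25.8. Col1a2 was the least variable of them (1.82-fold between its lowest and highest library, against 2.77-fold for Col1a1 and 4.80-fold for Col3a1). Col1a1 lay below Col1a2 in every library, at 0.548 to 0.930 of its FPKM.

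Type V collagen co-assembles with type I and starts the fibril. Its chains are Col5a1 (NCBI Gene 12831; GRCm38 chromosome 2, 27886381 to 28039510), Col5a2 (NCBI Gene 12832; GRCm38 chromosome 1, 45374331 to 45503282) and the less widely expressed Col5a3 (NCBI Gene 53867; GRCm38 chromosome 9, 20770050 to 20815117). Col5a1 had 7.62, 5.28 and 7.27 in Sham+control, 6.58, 11.7 and 9.5 in Sham+pimobendan, 5.91, 5.84 and 5.69 in TAC+control, with 7.45, 5.03 and 5.78 in TAC+pimobendan (FPKM). Col5a2 had 5.96, 3.66 and 5.37 in Sham+control, 4.12, 7.34 and 5.74 in Sham+pimobendan, 5.09, 4.04 and 3.72 in TAC+control, with 4.05, 3.73 and 3.76 in TAC+pimobendan. Col5a3 had 3.26, 2.24 and 2.42 in Sham+control, 5.64, 6.85 and 6.49 in Sham+pimobendan, 4.05, 2.2 and 1.42 in TAC+control, with 4.32, 1.76 and 2.08 in TAC+pimobendan. Col5a3 was the only tested chain whose 3 Sham+pimobendan libraries all lay above the other 9, a pattern shared by 1.17% of the 11415 genes tested; it was singled out after its values were seen. In those 3 libraries Col5a3 reached 0.585 to 0.857 of the FPKM of Col5a1, against 0.333 to 0.428 in Sham+control, 0.250 to 0.685 in TAC+control and 0.350 to 0.580 in TAC+pimobendan, so the Sham+pimobendan range overlapped that of TAC+control but not that of Sham+control or TAC+pimobendan.

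**Figure D2:**
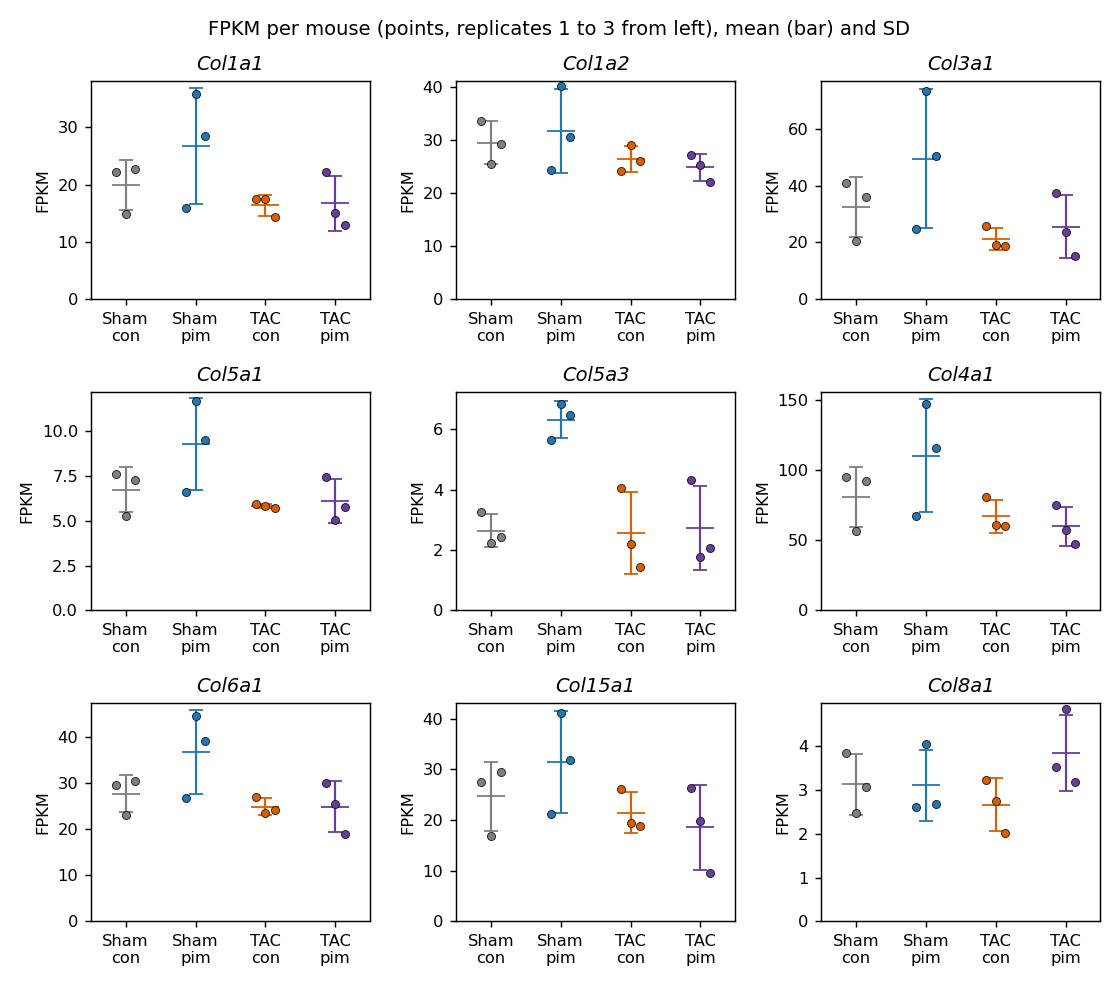
FPKM (vertical axes, from 0) of 9 collagen chains in each mouse, by group (con, control; pim, pimobendan); points are replicates 1 to 3 from left to right, the long bar is the mean and the whiskers the SD of 3 mice. The Col5a3 points of Sham+pimobendan (5.64 to 6.85 FPKM) sit above all other groups, which is not so for any of the other 8 chains drawn.

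The bases upstream of Col5a1 and Col5a3 are shown because these genes encode partner chains, and Col5a3 was the chain that passed the test under TAC with the drug. The sequences are cut from RefSeq promoter windows of GRCm38.p6 and cover the bases from 250 to 51 before the transcript start, read 5′ to 3′ along the gene; the 50 bases nearest that start are left out because the gene's annotated span reaches into them. Capitals mark matches to a CCAAT box (CCAAT or its complement ATTGG) or a GC box (GGGCGG or its complement CCGCCC).
Col5a1, chr2:27886175-27886374, plus strand: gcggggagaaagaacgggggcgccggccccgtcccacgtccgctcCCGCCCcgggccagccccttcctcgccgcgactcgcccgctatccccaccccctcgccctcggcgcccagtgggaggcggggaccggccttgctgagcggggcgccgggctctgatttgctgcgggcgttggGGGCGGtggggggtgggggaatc
Col5a3, chr9:20815118-20815317, minus strand: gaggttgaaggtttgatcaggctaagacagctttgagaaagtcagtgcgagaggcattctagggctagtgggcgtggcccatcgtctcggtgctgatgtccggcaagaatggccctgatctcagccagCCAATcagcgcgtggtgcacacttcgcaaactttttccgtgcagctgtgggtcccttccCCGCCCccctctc
The Col5a1 stretch had a GC content of 78% and GC boxes 73 to 68 and 205 to 200 bases before the start. The Col5a3 stretch had 58% GC, a CCAAT box 122 to 118 bases before the start and a GC box 63 to 58 bases before it. No exon of the GENCODE annotation reached into either. Of all 32851 upstream stretches of this length, 28.4% held a CCAAT box and 24.6% a GC box. Among the 33 collagen chain genes with an entry, 10 held a CCAAT box (30.3%) and 17 a GC box (51.5%) in at least 1 stretch. These are matches of letters, and nothing here measures binding.

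Type VI collagen forms beaded filaments that tie basement membranes to the interstitial matrix, from the products of Col6a1 (NCBI Gene 12833; GRCm38 chromosome 10, 76708792 to 76726044), Col6a2 (NCBI Gene 12834; GRCm38 chromosome 10, 76595756 to 76623630) and Col6a3 (NCBI Gene 12835; GRCm38 chromosome 1, 90766860 to 90844001). Col6a1 had 29.56, 23.02 and 30.44 in Sham+control, 26.66, 44.51 and 39.15 in Sham+pimobendan, 26.95, 23.58 and 24.14 in TAC+control, with 29.99, 25.56 and 18.95 in TAC+pimobendan (FPKM). Col6a2 had 27.29, 18.45 and 29.33 in Sham+control, 22.46, 42.17 and 34.5 in Sham+pimobendan, 25.11, 22.22 and 21.01 in TAC+control, with 25.1, 22.55 and 14.37 in TAC+pimobendan. Col6a3 had 4.56, 2.94 and 4.85 in Sham+control, 3.81, 6.26 and 5.84 in Sham+pimobendan, 5.21, 3.61 and 2.89 in TAC+control, with 4.21, 2.91 and 1.84 in TAC+pimobendan. The 3 chains were highest in Sham+pimobendan replicate 2 and lowest in TAC+pimobendan replicate 3. Col6a1 stood at 1.04 to 1.32 times Col6a2 in every library, and Col6a3 at 0.0971 to 0.193 of Col6a1, although the protein trimer holds each chain in equal number. Col6a6 (NCBI Gene 245026; GRCm38 chromosome 9, 105689417 to 105828246), whose product can take the place of the Col6a3 chain, had 1, 0.83 and 0.95 in Sham+control, 1.19, 1.18 and 0.95 in Sham+pimobendan, 0.68, 0.89 and 0.82 in TAC+control, with 1.13, 1.03 and 1.03 in TAC+pimobendan. Its TAC+control values lay below those of TAC+pimobendan, with no overlap, as did those of 23.3% of all genes tested.

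The multiplexins Col15a1 (NCBI Gene 12819; GRCm38 chromosome 4, 47207655 to 47313167) and Col18a1 (NCBI Gene 12822; GRCm38 chromosome 10, 77052178 to 77166530), the latter the source of the fragment endostatin, were both highest in Sham+pimobendan replicate 2. Col15a1 had 27.57, 16.89 and 29.53 in Sham+control, 21.16, 41.23 and 31.88 in Sham+pimobendan, 26.19, 19.37 and 18.84 in TAC+control, with 26.29, 19.83 and 9.53 in TAC+pimobendan (FPKM). Col18a1 had 3.42, 2.55 and 3.73 in Sham+control, 2.86, 5.25 and 3.35 in Sham+pimobendan, 2.31, 2.52 and 2.64 in TAC+control, with 2.98, 2.8 and 2.29 in TAC+pimobendan. The lowest Col15a1 value, 9.53, was in TAC+pimobendan replicate 3, and the groups overlapped for both genes. Col8a1 (NCBI Gene 12837; GRCm38 chromosome 16, 57624256 to 57754737) encodes a chain of the hexagonal networks of vessel walls, and it had 3.84, 2.46 and 3.07 in Sham+control, 2.6, 4.04 and 2.67 in Sham+pimobendan, 3.23, 2.74 and 2.02 in TAC+control, with 3.52, 4.83 and 3.18 in TAC+pimobendan. Its highest value, 4.83 FPKM, was in TAC+pimobendan replicate 2, in contrast to the 16 chains that peaked in Sham+pimobendan replicate 2.

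Of the FACITs, Col14a1 (NCBI Gene 12818; GRCm38 chromosome 15, 55307644 to 55520803) had 3.46, 1.69 and 2.7 in Sham+control, 2.27, 4.02 and 2.2 in Sham+pimobendan, 1.71, 1.67 and 2.21 in TAC+control, with 3.05, 2.35 and 2.37 in TAC+pimobendan (FPKM). Its 3 TAC+pimobendan values, 2.35 to 3.05, lay above the 3 TAC+control values, 1.67 to 2.21, as was so for 23.3% of all genes tested. Col12a1 (NCBI Gene 12816; GRCm38 chromosome 9, 79598987 to 79721141), a FACIT of tissues under tension, was close to absent from the table's values and was not tested: it had 0.17, 0.07 and 0.14 in Sham+control, 0.09, 0.16 and 0.18 in Sham+pimobendan, 0.11, 0.12 and 0.12 in TAC+control, with 0.14, 0.17 and 0.14 in TAC+pimobendan. Col16a1 ranged from 1.32 to 2.96 FPKM and Col20a1 from 0.78 to 1.51.

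Chains of other tissues were low throughout. The tested chain nearest above the limit of 3 libraries at 1 FPKM was Col4a4 (4 libraries, mean 0.988 FPKM), followed by Col6a6 (6 libraries, mean 0.973) and Col20a1 (9 libraries, mean 1.12); nearest below were Col27a1 (mean 0.757, 1 library at 1.00) and Col23a1 (mean 0.517, none). The transmembrane collagens Col13a1, Col17a1, Col23a1 and Col25a1 stayed between 0 and 0.64 FPKM. Of the cartilage collagens, Col2a1 was at most 0.04, Col9a2 0.18, Col9a3 0.15, Col10a1 0.03, Col11a1 0.02 and Col11a2 0.45. Col7a1 of the skin's anchoring fibrils reached 0.08 FPKM, Col8a2 0.23, Col22a1 0.53, Col26a1 0.29 and Col28a1 0.48. The lowest were Col24a1 (at most 0.02), Col6a5 (0.02) and Col6a4 (0.01). In all, 7 chains were listed at 0 in 6 or more libraries, and 11 had a mean under 0.1 FPKM. The 22 untested chains together summed to between 3.13 and 4.95 FPKM per library.

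**Figure D3:**
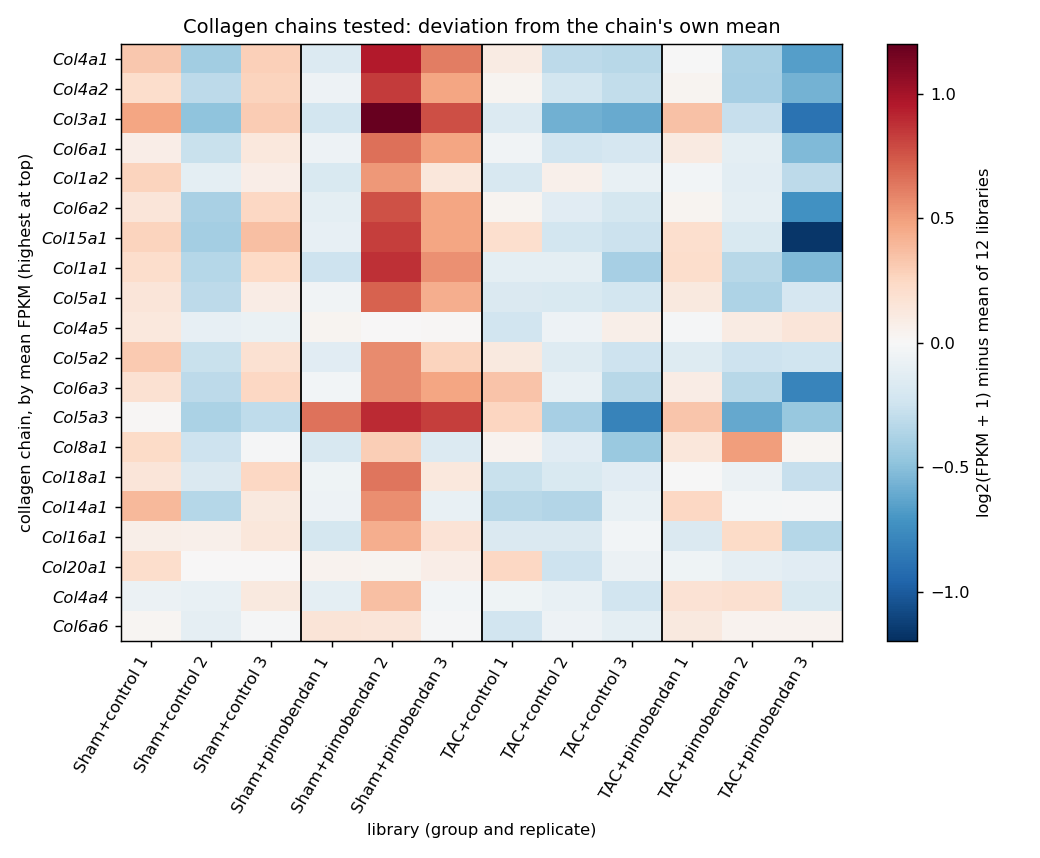
Each row is 1 of the 20 tested collagen chains, ordered by mean FPKM, and each column 1 of the 12 libraries; colour gives log2(FPKM + 1) minus the chain's mean over the 12 libraries. Sham+pimobendan replicate 2 is high for most rows and TAC+pimobendan replicate 3 low for many, while Col4a5 varies little and Col5a3 is high in all 3 Sham+pimobendan libraries.

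TAC without drug asked how pressure overload alone acts on the collagen chains. No chain passed the test: 0 of the 20 tested were called in either direction at an adjusted p under 0.05, with limma on log2(FPKM + 1) and Benjamini-Hochberg adjustment over all genes tested, and 0 of the 20 had an unadjusted p under 0.05. The background was the same, with 0% of the 11415 genes called and 8.33% at an unadjusted p under 0.05. All 20 log2 fold changes (TAC+control minus Sham+control, on the log2(FPKM + 1) scale, which understates the change of low genes) were below 0, from -0.55 for Col3a1 to -0.057 for Col4a5, with a median of -0.17. Over all genes tested 65.1% were below 0 and the median was -0.057. The median was -0.078 (17 of 20 below 0) without Sham+control replicate 1 and -0.30 (20 of 20) without Sham+control replicate 2. It was -0.10 with median-ratio scaling (19 of 20), -0.089 with quantile normalization (15 of 20) and -0.11 after the GC correction (20 of 20).

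For the interstitial fibril, Col1a1, Col1a2 and Col3a1 had log2 fold changes of -0.25, -0.15 and -0.55 (SE 0.26, 0.16 and 0.38; limma adjusted p 0.803, 0.81 and 0.708). Of type V, Col5a1, Col5a2 and Col5a3 had log2 fold changes of -0.17, -0.17 and -0.090 (SE 0.18, 0.18 and 0.27; limma adjusted p 0.813, 0.809 and 0.942). The 95% interval of Col1a1 ran from -0.82 to 0.32 and that of Col3a1 from -1.36 to 0.27, both spanning 0. In the basement membrane, Col4a1 and Col4a2 had log2 fold changes of -0.25 and -0.22 (SE 0.27 and 0.22; limma adjusted p 0.814 and 0.803). Among beaded filament chains, Col6a1, Col6a2, Col6a3 and Col6a6 had log2 fold changes of -0.14, -0.11, -0.068 and -0.10 (SE 0.19, 0.24, 0.25 and 0.11; limma adjusted p 0.849, 0.92, 0.953 and 0.805). For the remaining families, Col8a1, Col14a1, Col15a1 and Col18a1 had log2 fold changes of -0.17, -0.31, -0.17 and -0.27 (SE 0.18, 0.20, 0.32 and 0.17; limma adjusted p 0.81, 0.701, 0.904 and 0.694). Col18a1, Col14a1 and Col3a1 had the smallest unadjusted p of the 20, 0.136, 0.148 and 0.169. Only Col16a1 had groups that did not overlap, at 2.06 to 2.23 FPKM in Sham+control and 1.6 to 1.87 in TAC+control; 9.74% of all genes tested were lower without overlap in this comparison.

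None of the genes that make, cut or bind collagen was called either. Of 32 tested genes of collagen synthesis 13 had log2 fold changes above 0 and 19 below; P4ha2, a prolyl hydroxylase subunit, led the modifying enzymes (0.26 ± 0.11, adjusted p = 0.585) and the transglutaminase Tgm2 the crosslinkers (0.19 ± 0.086, adjusted p = 0.596). Of 18 degradation genes 15 were below 0, led by the membrane protease Fap (-0.40 ± 0.16, adjusted p = 0.561) and by Adamts5 (-0.31 ± 0.15, adjusted p = 0.602). The degradation list was drawn up with protease inhibitors as well (Timp1, Timp2, Timp3, Timp4 and Reck). Its counts of direction, here and below, therefore do not measure breakdown of collagen. Of 10 collagen receptor genes 7 were below 0, led by the integrin chain Itgb1 (-0.28 ± 0.13, adjusted p = 0.593) and Adgrg1 (-0.27 ± 0.20, adjusted p = 0.74). The laminin chain Lama5 (-0.30 ± 0.13, adjusted p = 0.585) and the nidogen Nid2 (-0.37 ± 0.20, adjusted p = 0.643) led 27 proteoglycans and matrix partners, of which 18 were below 0. Of 26 TGF-beta and profibrotic genes 18 were below 0, with Smad3 (-0.34 ± 0.12, adjusted p = 0.556) and Tgfbr1 (-0.32 ± 0.14, adjusted p = 0.591) at the smallest p. That list, too, was drawn up with inhibitors of the pathway among its genes (Smad6, Smad7, Ski, Skil, Bambi and Pmepa1).

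Summed red cell markers (7 of 7 measured) moved with this comparison: they lay between 4200 and 6703 FPKM in TAC+control, between 1553 and 3064 in Sham+control, between 452 and 1907 in Sham+pimobendan and between 1143 and 2282 in TAC+pimobendan, and their part in the collagen values was not tested. Endothelial markers (12 of 12) summed to 1587 to 2039 FPKM in Sham+control and 1502 to 1728 in TAC+control.

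TAC under pimobendan compared TAC+pimobendan with Sham+pimobendan, the effect of the clip in mice that all had the drug. Col5a3 fell: 1 of 20 chains was called, against 4.89% of all genes tested in either direction and 0.245% called lower. Its mean was 6.33 ± 0.621 FPKM (SD, n = 3) in Sham+pimobendan and 2.72 ± 1.39 in TAC+pimobendan, and the 3 values of each group did not overlap. Its log2 fold change was -1.04 ± 0.27 (SE; 95% interval -1.61 to -0.46; limma adjusted p = 0.0455), lower in 3 of 3 TAC libraries. The call sits at the threshold. It was lost when any of 8 libraries was left out, at adjusted p between 0.0548 and 0.189; these were Sham+control replicates 2 and 3, all 3 Sham+pimobendan libraries, TAC+control replicate 2 and TAC+pimobendan replicates 2 and 3. It was also lost after correction for GC content (adjusted p = 0.143), and the log2 fold change lay between -1.33 and -0.85 over the 23 alternatives run.

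The 5 other tested fibrillar chains and 3 of the 4 tested basement membrane chains had log2 fold changes below 0 without passing the test, and Col4a5 had 0.060 ± 0.10, adjusted p = 0.76 (limma). Of types I and III, Col1a1, Col1a2 and Col3a1 had log2 fold changes of -0.61, -0.32 and -0.89 (SE 0.26, 0.16 and 0.38; limma adjusted p 0.188, 0.256 and 0.181). Of type V, Col5a1 and Col5a2 had log2 fold changes of -0.52 and -0.45 (SE 0.18 and 0.18; limma adjusted p 0.115 and 0.169). In the basement membrane, Col4a1 and Col4a2 had log2 fold changes of -0.82 and -0.73 (SE 0.27 and 0.22; limma adjusted p 0.0918 and 0.0719). Col4a2, partner of Col4a1 in the trimer, had the second smallest unadjusted p of the 20, 0.00608, and Col4a1 the third, 0.0097. Among beaded filament chains, Col6a1, Col6a2, Col6a3 and Col6a6 had log2 fold changes of -0.54, -0.64, -0.68 and -0.028 (SE 0.19, 0.24, 0.25 and 0.11; limma adjusted p 0.109, 0.13, 0.118 and 0.898). For the remaining families, Col8a1, Col14a1, Col15a1 and Col18a1 had log2 fold changes of 0.24, -0.067, -0.79 and -0.36 (SE 0.18, 0.20, 0.32 and 0.17; limma adjusted p 0.458, 0.871, 0.171 and 0.228).

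Counted together, 18 of the 20 log2 fold changes were below 0, with a median of -0.48, while over all genes tested 51.0% were below 0 and the median was -0.0061. An unadjusted p under 0.05 was found for 11 of the 20 chains, all lower; the share over all genes tested was 22.9% in either direction and 6.09% lower. Groups did not overlap for Col5a2, Col5a3 and Col20a1, which were lower, against 9.35% of all genes. Without Sham+pimobendan replicate 2 and TAC+pimobendan replicate 3, 14 of the 20 were below 0 and the median was -0.20. Those libraries were picked by their extreme collagen sums, which by itself shrinks the difference between the groups. The median was -0.31 (16 below 0) without Sham+pimobendan replicate 2 alone and -0.67 (17) without Sham+pimobendan replicate 1. Without Sham+pimobendan replicate 1, on the other hand, Col1a1, Col4a1, Col4a2, Col5a1 and Col6a1 were called (limma adjusted p from 0.0464 to 0.0490) and Col5a3 was not. That fit called 328 of 11394 genes over the whole table. Without TAC+pimobendan replicate 1, Col4a2, Col5a3, Col6a1 and Col6a3 were called. Calls over the whole table then rose from 558 of 11415 genes to 1222 of 11383.

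**Figure D4:**
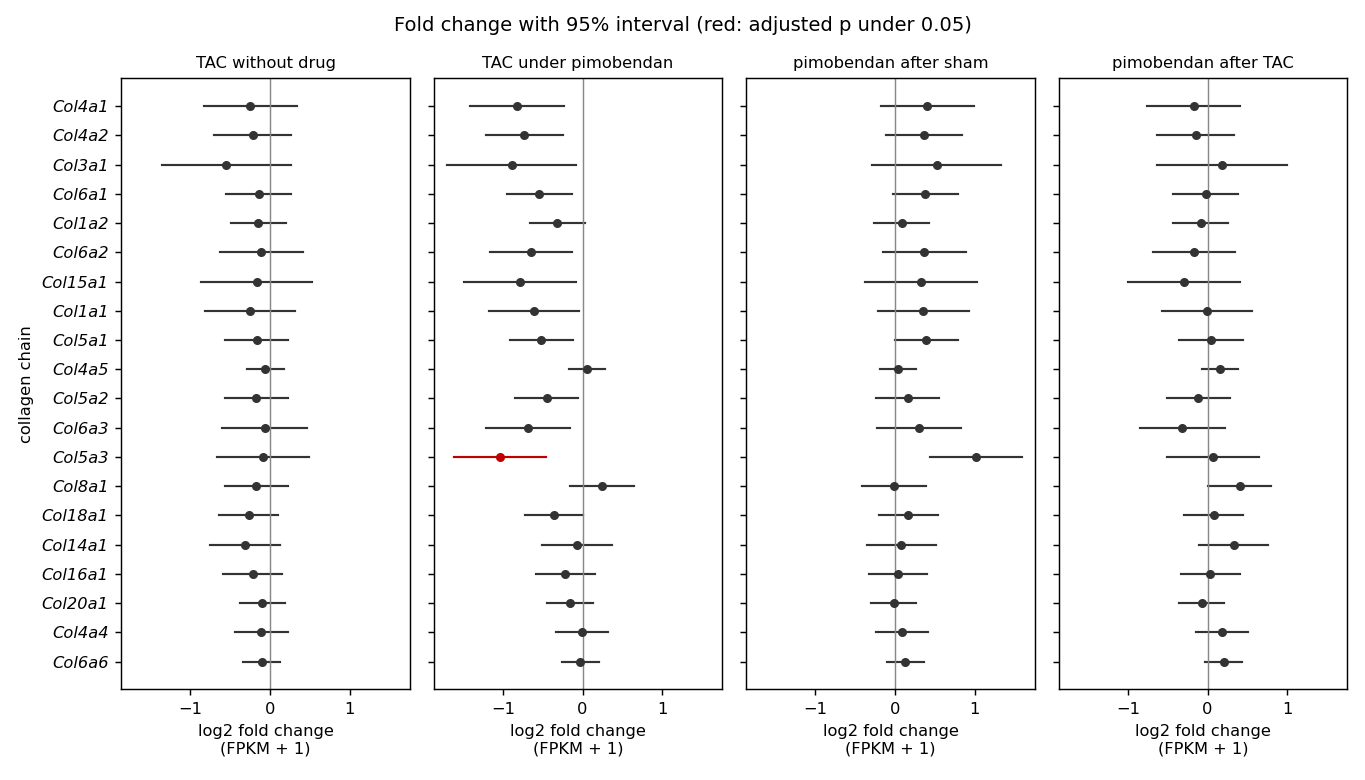
Log2 fold change on the log2(FPKM + 1) scale (points) with its 95% interval from limma (lines) for the 20 tested collagen chains in 4 comparisons; red marks an adjusted p under 0.05. Only Col5a3 in TAC under pimobendan is red (-1.04), and its estimate in pimobendan after sham is the largest in that panel (1.02).

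GC content moved with this comparison. Across genes, the Spearman correlation of transcript GC with how far a library stood from the 12-library average was between 0.14 and 0.52 in Sham+pimobendan and between -0.52 and -0.19 in TAC+pimobendan, and the median GC of transcripts was 55.9% for the 20 tested chains and 50.1% over the whole table of tested genes. After the GC correction, which was chosen after seeing the data, 16 of the 20 chains were below 0 with a median of -0.41, and none of 11334 genes was called.

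Genes around the collagens went both ways. In synthesis Mia3, which packs procollagen into carriers leaving the endoplasmic reticulum, rose: it had 6.85, 5.96 and 5.71 in Sham+control, 5.72, 5.25 and 5.43 in Sham+pimobendan, 5.73, 5.06 and 5.18 in TAC+control, with 6.79, 8.26 and 8.5 in TAC+pimobendan (FPKM), and its log2 fold change was 0.45 ± 0.11, adjusted p = 0.0372 with limma. That was 1 of 32 synthesis genes called, where 530 of all 11415 genes tested were called higher, and 25 of the 32 had log2 fold changes below 0. Of these, the lysyl hydroxylase Plod1 (-0.38 ± 0.10, adjusted p = 0.0512) and the prolyl hydroxylase P3h2, which acts on type IV collagen (-0.44 ± 0.12, adjusted p = 0.0559), missed the threshold narrowly. The crosslinking oxidases Loxl2 and Loxl1 had -0.56 ± 0.24, adjusted p = 0.18 and -0.44 ± 0.19, adjusted p = 0.203. None of 4 propeptide removal genes was called, with Adamts2 at -0.37 ± 0.20, adjusted p = 0.287 and Pcolce at -0.29 ± 0.17, adjusted p = 0.34. Among 18 degradation genes none was called; the gelatinase Mmp2 had -0.49 ± 0.14, adjusted p = 0.0577 and Adamts5 0.52 ± 0.15, adjusted p = 0.0608. None of 10 receptor genes was called, although Itga1, an integrin chain that binds type IV collagen, had 0.62 ± 0.17, adjusted p = 0.0561 and Ddr2, the receptor for fibrillar collagen, 0.39 ± 0.12, adjusted p = 0.0806.

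Ogn, the small leucine-rich proteoglycan osteoglycin, rose as 1 of 27 proteoglycans and matrix partners: it had 21.05, 14.62 and 14.45 in Sham+control, 17.12, 13.68 and 9.84 in Sham+pimobendan, 10.39, 22.66 and 12.67 in TAC+control, with 21.09, 45.67 and 39.71 in TAC+pimobendan (FPKM; log2 fold change 1.29 ± 0.31, adjusted p = 0.0386, limma). TAC+pimobendan replicates 2 and 3 held its highest values. In the TGF-beta list 1 of 26 was called, the activin receptor Acvr2a, which rose (0.79 ± 0.18, adjusted p = 0.0341). The next, Tgfbr1, had 0.54 ± 0.14, adjusted p = 0.0501. These single calls of Ogn and Acvr2a stand beside 530 of all 11415 genes tested called higher. The myofibroblast and smooth muscle actin Acta2 fell (-1.79 ± 0.37, adjusted p = 0.0314), with 66.1, 56.74 and 134.56 in Sham+control, 94.84, 99.14 and 186.54 in Sham+pimobendan, 85.17, 56.57 and 63.79 in TAC+control, with 54.87, 34.42 and 21.07 in TAC+pimobendan. Acta2 was the 1 call among 10 tested activated fibroblast markers, beside 0.245% of all genes tested called lower. No gene of the whole table, these included, was called with the replicate block, with no filter, with only the groups compared or after the GC correction, nor without any 1 of Sham+pimobendan replicates 2 and 3 and TAC+pimobendan replicates 2 and 3. Of 12 endothelial markers, 6 had log2 fold changes above 0 and 6 below. Esam (-0.39 ± 0.095, adjusted p = 0.0409) and Pecam1 (-0.45 ± 0.12, adjusted p = 0.0497) were called lower and none was called higher. Over all genes tested 0.245% were called lower. Of 10 cardiomyocyte markers 2 were called higher and none lower. Of 10 mural markers 5 were above 0 and 5 below, and none was called. The sum of all 12 endothelial markers was 1791 to 2027 FPKM in Sham+pimobendan and 1729 to 2400 in TAC+pimobendan. The part of these markers in the basement membrane values was not tested.

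Pimobendan after sham, Sham+pimobendan minus Sham+control, asked what the drug does to collagen without the load. None of the 20 chains passed the test (0% of the 11415 genes did, and 4.54% had an unadjusted p under 0.05). The largest difference was in Col5a3, whose mean was 6.33 ± 0.621 FPKM (SD, n = 3) with the drug and 2.64 ± 0.544 without it, higher in 3 of 3 mice with no overlap; 6.16% of all genes were higher without overlap. Its log2 fold change was 1.02 ± 0.27 (95% interval 0.44 to 1.59), with an unadjusted p of 0.00217 and a limma adjusted p of 0.91. It is the same Sham+pimobendan group that Col5a3 was measured against under TAC, so the comparisons are not independent.

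In 18 of the 20 chains the log2 fold change was above 0, with a median of 0.23; over all genes tested 53.7% were above 0 and the median was 0.013. It was above 0 in 12 of 20 (median 0.11) without Sham+pimobendan replicate 2 and in 14 (median 0.088) without Sham+control replicate 2, but in 19 (median 0.41) without Sham+pimobendan replicate 1 and in all 20 (median 0.32) without Sham+control replicate 1. Among the main fibrillar chains, Col1a1, Col1a2 and Col3a1 had log2 fold changes of 0.35, 0.082 and 0.52 (SE 0.26, 0.16 and 0.38; limma adjusted p 0.91, 0.959 and 0.91). Of type V, Col5a1 and Col5a2 had log2 fold changes of 0.39 and 0.16 (SE 0.18 and 0.18; limma adjusted p 0.91 and 0.926). In the basement membrane, Col4a1 and Col4a2 had log2 fold changes of 0.40 and 0.36 (SE 0.27 and 0.22; limma adjusted p 0.91 and 0.91). Among beaded filament chains, Col6a1, Col6a2, Col6a3 and Col6a6 had log2 fold changes of 0.38, 0.37, 0.30 and 0.13 (SE 0.19, 0.24, 0.25 and 0.11; limma adjusted p 0.91, 0.91, 0.91 and 0.91). For the remaining families, Col8a1, Col14a1, Col15a1 and Col18a1 had log2 fold changes of -0.011, 0.081, 0.33 and 0.17 (SE 0.18, 0.20, 0.32 and 0.17; limma adjusted p 0.994, 0.972, 0.91 and 0.91). After Col5a3 the smallest unadjusted p were those of Col5a1 (0.0531) and Col6a1 (0.0671).

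The wider pathway held no called gene. Of 32 synthesis genes 26 had log2 fold changes above 0, with P3h2 (0.39 ± 0.12, adjusted p = 0.91) and Loxl1 (0.49 ± 0.19, adjusted p = 0.91) at the smallest p of the hydroxylases and crosslinkers. Of 18 degradation genes 12 were above 0, with Fap at -0.50 ± 0.16, adjusted p = 0.91 and the membrane metalloproteinase Mmp14 at 0.51 ± 0.25, adjusted p = 0.91. Receptors split 5 to 5, led by Itga1 (-0.33 ± 0.17, adjusted p = 0.91) and Itgb1 (-0.23 ± 0.13, adjusted p = 0.91). Matrix partners counted 16 of 27 above 0, with Fbln2 at 0.23 ± 0.11, adjusted p = 0.91 and Podn at -0.32 ± 0.16, adjusted p = 0.91. In the TGF-beta list 14 of 26 were above 0, with the fibroblast transcription factor Tcf21 at 0.48 ± 0.17, adjusted p = 0.91 and Tgfbr1 at -0.29 ± 0.14, adjusted p = 0.91.

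Pimobendan after TAC, TAC+pimobendan minus TAC+control, is the comparison closest to the use of the drug in a loaded heart. No collagen chain was called, against 3.27% of all genes tested, 3.15% higher and 0.114% lower. The chains split evenly, 10 above 0 and 10 below, with a median of 0.014, where all genes had 66.0% above 0 and a median of 0.095. That median was -0.0060 with median-ratio scaling, a shift of the whole table, and 6 of the 20 chains were then above 0. Leaving out 1 library moved the chains' median from -0.14 (7 above 0, without TAC+pimobendan replicate 1) to 0.13 (14 above 0, without TAC+pimobendan replicate 3).

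In collagens I and III, Col1a1, Col1a2 and Col3a1 had log2 fold changes of -0.005, -0.087 and 0.18 (SE 0.26, 0.16 and 0.38; limma adjusted p 0.993, 0.763 and 0.796). The 95% interval for Col1a1 ran from -0.57 to 0.56. Of type V, Col5a1, Col5a2 and Col5a3 had log2 fold changes of 0.043, -0.12 and 0.070 (SE 0.18, 0.18 and 0.27; limma adjusted p 0.906, 0.722 and 0.895). In the basement membrane, Col4a1 and Col4a2 had log2 fold changes of -0.17 and -0.15 (SE 0.27 and 0.22; limma adjusted p 0.721 and 0.707). Among beaded filament chains, Col6a1, Col6a2, Col6a3 and Col6a6 had log2 fold changes of -0.024, -0.17, -0.31 and 0.20 (SE 0.19, 0.24, 0.25 and 0.11; limma adjusted p 0.949, 0.697, 0.442 and 0.249). For the remaining families, Col8a1, Col14a1, Col15a1 and Col18a1 had log2 fold changes of 0.40, 0.33, -0.29 and 0.077 (SE 0.18, 0.20, 0.32 and 0.17; limma adjusted p 0.186, 0.327, 0.601 and 0.808). The smallest unadjusted p were those of Col8a1 (0.0492), Col6a6 (0.0828) and Col14a1 (0.131). Col14a1 and Col6a6 were higher without overlap, as were 23.3% of all genes.

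Of the genes around the collagens, 3 were called. Mia3 rose (0.48 ± 0.11, adjusted p = 0.0428), the only call among 32 synthesis genes, of which 13 were above 0. The hydroxylases P4ha2 (-0.40 ± 0.11, adjusted p = 0.0593) and Plod3 (-0.29 ± 0.093, adjusted p = 0.0777) and the collagen chaperone Serpinh1 (-0.67 ± 0.27, adjusted p = 0.133) had values below 0 and did not pass. Adamts5, a protease of matrix proteoglycans, rose (0.75 ± 0.15, adjusted p = 0.0409): it had 2.94, 2.47 and 2.2 in Sham+control, 2.96, 2.29 and 1.85 in Sham+pimobendan, 1.77, 2.15 and 1.62 in TAC+control, with 3.07, 4.07 and 4.28 in TAC+pimobendan FPKM. Ctss, the lysosomal protease cathepsin S of macrophages, rose as well (0.82 ± 0.17, adjusted p = 0.0409): it had 10.36, 10.03 and 7.9 in Sham+control, 8.64, 12.66 and 9.95 in Sham+pimobendan, 8.11, 7.27 and 7.08 in TAC+control, with 13.41, 11.22 and 17.93 in TAC+pimobendan FPKM. They were 2 of 18 degradation genes, 11 of which were above 0. Macrophage markers moved with Ctss, which is on their list: all 12 were above 0 and their sum was 337 to 363 FPKM in TAC+control and 369 to 486 in TAC+pimobendan; their part in the result was not tested.

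Receptors had 7 of 10 above 0 and no call, with Ddr2 at 0.44 ± 0.12, adjusted p = 0.0578 and Itgb1 at 0.45 ± 0.13, adjusted p = 0.0593. Matrix partners had 18 of 27 above 0 and no call, with Ogn at 1.17 ± 0.31, adjusted p = 0.0524 and Lama2 at 0.37 ± 0.10, adjusted p = 0.0549. In the TGF-beta list, 18 of 26 were above 0 without a call, and Tgfbr1 had 0.57 ± 0.14, adjusted p = 0.0501 and Acvr2a 0.60 ± 0.18, adjusted p = 0.0647. Median-ratio scaling, quantile normalization, the GC correction, no filter and only the groups compared each left 0 genes called in this comparison over the whole table, and the replicate block left 1. Calls fell to 0 without TAC+control replicate 3 or TAC+pimobendan replicate 2. They fell to 1 without Sham+control replicate 2 or Sham+pimobendan replicate 2, and to 3 without TAC+control replicate 1 or TAC+pimobendan replicate 3. With any other library left out they ran from 154 to 1187.

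Whether the effect of TAC differed with the drug was tested by the interaction, the TAC effect under pimobendan minus that without drug. None of the 20 chains was called, nor any of the 11415 genes (0%), of which 20.3% had an unadjusted p under 0.05. Col5a3 came first with -0.95 ± 0.38, adjusted p = 0.182 by limma and an unadjusted p of 0.0259. It passed only when TAC+pimobendan replicate 1, its highest TAC+pimobendan library, was left out (log2 difference -1.24, adjusted p = 0.0462). With that library left out, 772 of 11383 genes over the whole table were called. In the fit of all 12 libraries, Col6a3 (-0.61 ± 0.35, adjusted p = 0.346) and Col4a2 (-0.51 ± 0.31, adjusted p = 0.388) followed Col5a3. Of the 20 estimates 15 were below 0, with a median of -0.31, where all genes had 41.0% below 0 and a median of 0.066. That pattern changed with the libraries used. Without the libraries of highest and lowest collagen sum the chains split 10 to 10 with a median of 0.014. Those libraries were picked by the collagen values themselves, which by itself shrinks the differences between groups. The median was -0.087 (11 below 0) without Sham+pimobendan replicate 2, -0.088 (13) without Sham+control replicate 2, -0.15 (14) without TAC+pimobendan replicate 3 and -0.51 (15) without Sham+pimobendan replicate 1. For types I and III, Col1a1, Col1a2 and Col3a1 had log2 differences of -0.36, -0.17 and -0.34 (SE 0.37, 0.22 and 0.53; limma adjusted p 0.629, 0.723 and 0.774). Of the other panel chains, Col5a1, Col5a2, Col4a1, Col6a1 and Col6a2 had log2 differences of -0.35, -0.28, -0.58, -0.40 and -0.54 (SE 0.26, 0.26, 0.38, 0.27 and 0.34; limma adjusted p 0.485, 0.589, 0.428, 0.428 and 0.399). Estimates above 0 included those of Col8a1 (0.41 ± 0.26, adjusted p = 0.402) and Col14a1 (0.24 ± 0.29, adjusted p = 0.681), with Col15a1 at -0.62 ± 0.46, adjusted p = 0.483 and Col18a1 at -0.090 ± 0.24, adjusted p = 0.876.

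Averaged over both drug arms, the TAC effect called no chain (0% of all genes; 14.1% had an unadjusted p under 0.05, 6.76% lower). An unadjusted p under 0.05 was found for 10 of the 20 chains, all lower. Col4a2, Col5a3 and Col4a1 led, with -0.47 ± 0.16, adjusted p = 0.254, -0.56 ± 0.19, adjusted p = 0.255 and -0.53 ± 0.19, adjusted p = 0.281 by limma. Of the type I and III chains, Col1a1, Col1a2 and Col3a1 had log2 fold changes of -0.43, -0.23 and -0.72 (SE 0.19, 0.11 and 0.27; limma adjusted p 0.335, 0.367 and 0.292). Of the other panel chains, Col5a1, Col5a2, Col6a1, Col6a2 and Col6a3 had log2 fold changes of -0.34, -0.31, -0.34, -0.38 and -0.37 (SE 0.13, 0.13, 0.13, 0.17 and 0.17; limma adjusted p 0.295, 0.323, 0.304, 0.348 and 0.354). For the remaining families, Col8a1, Col14a1, Col15a1 and Col18a1 had log2 fold changes of 0.036, -0.19, -0.48 and -0.31 (SE 0.13, 0.14, 0.23 and 0.12; limma adjusted p 0.916, 0.558, 0.366 and 0.295). No tested chain was higher with TAC by more than 0.036 (Col8a1) on the log2 scale in this average.

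Averaged over both surgeries, pimobendan called no chain either (1 gene of 11415, 0.00876%, was called; 12% had an unadjusted p under 0.05). Col5a3 (0.54 ± 0.19, adjusted p = 0.343), Col6a6 (0.16 ± 0.076, adjusted p = 0.415) and Col5a1 (0.22 ± 0.13, adjusted p = 0.513) had the smallest p by limma. In the interstitial fibril, Col1a1, Col1a2 and Col3a1 had log2 fold changes of 0.17, -0.0023 and 0.35 (SE 0.19, 0.11 and 0.27; limma adjusted p 0.707, 0.995 and 0.59). Of the other panel chains, Col5a2, Col4a1, Col4a2, Col6a1, Col6a2 and Col6a3 had log2 fold changes of 0.021, 0.12, 0.11, 0.18, 0.10 and -0.0078 (SE 0.13, 0.19, 0.16, 0.13, 0.17 and 0.17; limma adjusted p 0.958, 0.82, 0.796, 0.59, 0.82 and 0.99). For the remaining families, Col8a1, Col14a1, Col15a1 and Col18a1 had log2 fold changes of 0.20, 0.20, 0.017 and 0.12 (SE 0.13, 0.14, 0.23 and 0.12; limma adjusted p 0.551, 0.565, 0.983 and 0.682).

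Cell type markers were set beside the collagen levels library by library. Activated fibroblast markers (13 of 13 measured, 10 of them tested) summed to 152 to 238 FPKM in Sham+control, 221 to 298 in Sham+pimobendan, 118 to 171 in TAC+control and 74.7 to 153 in TAC+pimobendan. Their list includes Acta2, the myofibroblast and smooth muscle actin, whose FPKM given above made up a large part of these sums. The general fibroblast markers (15 of 15) summed to 1130 to 1334, 1155 to 1379, 1216 to 1416 and 1311 to 1417 FPKM in the same order. As a mean log2 deviation from the average of the 12 libraries, the 20 collagen chains stood at 0.60 in Sham+pimobendan replicate 2 and -0.39 in TAC+pimobendan replicate 3. Fibroblast markers stood at 0.15 and 0.11 in those libraries and activated fibroblast markers at 0.49 and -0.57. The part of any cell type in the collagen values was not tested. No marker list had a gene at 0 in every library; mesothelial markers (7 of 7) summed to 1.27 to 4.40 FPKM, and those of cartilage and valve (7 of 8 measured) to 1.13 to 2.40.

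**Figure D5:**
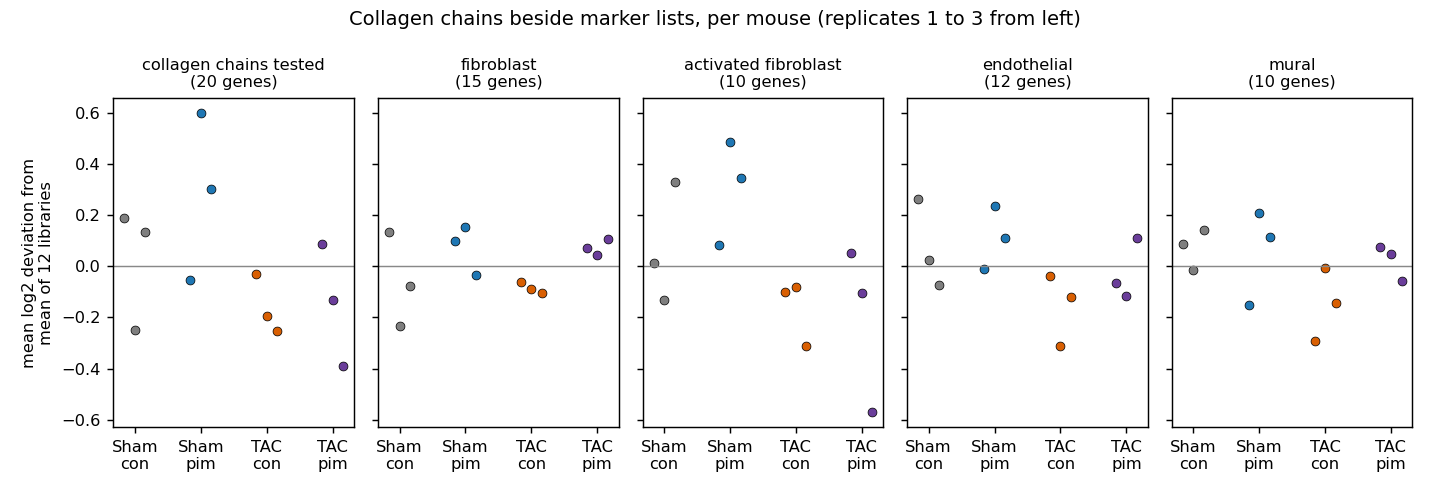
Mean log2 deviation from the average of the 12 libraries (vertical axis), over the tested genes of each list, for every mouse by group; points are replicates 1 to 3 from left to right. The collagen chains span from -0.39 to 0.60, a wider range than the fibroblast markers in the panel beside them. The activated fibroblast markers span from -0.57 to 0.49.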

How the data were processed

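Left ventricular mRNA of 12 mice (4 groups of 3) was analysed. The authors deposited FPKM and TPM per gene. Tools listed, with no role, in the notes that the submitters gave on processing are RSEM 1.2.12, HISAT2 2.0.4, DESeq2 1.4.5 and Bowtie2 2.2.5, with build GRCm38. The authors' table also holds a transcript number per gene, a score-like annotation that entered no test. Whether counting used strand is not given in the sources used here, and 9 of the 20 tested chains overlap an annotated gene on the opposite strand. FPKM as deposited, log2(FPKM + 1), was fitted with limma 3.58.1 (R 4.3.3, trend) over all 12 libraries, with 8 residual degrees of freedom, for genes at 1 FPKM or more in at least 3 libraries. P-values were Benjamini-Hochberg adjusted over all genes tested, in 7 comparisons, with calls at 0.05. The fit was tested on simulated data. Named chains are a panel of 15 set by role, any called chain and the 3 smallest p of each comparison, and in pathway lists the called genes or those of smallest p. The members and lists were chosen with earlier results of these data known. Alternatives were median-ratio scaling, quantile normalization, TPM, a pseudocount of 0.1, other filters, a replicate block, fewer groups and leaving out each library. Upstream sequences and gene spans are RefSeq, GRCm38.p6. With 3 against 3 an exact permutation test cannot go below p = 0.1.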

Additional observations from a re-analysis of the deposited data

How the results depend on the processing

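Of 73 values for single chains and 1664 alternatives, 1583 kept direction and side of the threshold, 15 no longer passed, 9 newly passed and 57 changed sign. The count of chains called stayed at 0 in the other comparisons under every alternative that kept all libraries. In TAC under pimobendan the 1 call became 0 with a pseudocount of 0.1, with no filter, with the replicate block, with only the groups compared, after the GC correction with or without the replicate block, and without the libraries of highest and lowest collagen sum; leaving out 1 library at a time gave 0 to 5 calls there and 0 to 1 in the interaction. Over the whole table, leaving out 1 library gave 0 to 1222 calls in TAC under pimobendan and 0 to 772 in the interaction. The cause was not tested. The GC correction, with or without the replicate block, and the fit without the libraries of highest and lowest collagen sum were chosen after seeing the data. Replicate numbers are not stated to pair the mice, and the values cannot settle whether they do. Deviations of same-numbered libraries from their group means correlated at -0.44 to 0.25, with 4 of 18 pairs over 0.1. Under the replicate block Col5a3 had an adjusted p of 0.0652 (limma). Signs changed in TAC without drug as follows: quantile normalization gave Col6a3 0.0457, Col5a3 0.0254 and Col6a6 0.0188. Signs changed in pimobendan after TAC as follows: TPM gave Col1a1 0.065 and Col6a1 0.0464, GC correction gave Col1a1 0.0186, GC correction with replicate block gave Col1a1 0.0186, without the libraries of highest and lowest collagen sum gave Col1a1 0.15, Col6a1 0.15, Col6a2 0.0638 and Col15a1 0.10, median-ratio scaling gave Col5a1 -0.0602, Col18a1 -0.0097 and Col5a3 -0.016, quantile normalization gave Col5a1 -0.13, Col18a1 -0.14 and Col5a3 -0.14. Signs changed in pimobendan after sham as follows: without the libraries of highest and lowest collagen sum gave Col1a2 -0.0987, Col5a2 -0.0091, Col14a1 -0.13 and Col18a1 -0.0364, GC correction gave Col8a1 0.0059, GC correction with replicate block gave Col8a1 0.0059. Signs changed in TAC under pimobendan as follows: without the libraries of highest and lowest collagen sum gave Col14a1 0.19 and Col6a6 0.0090, GC correction gave Col6a6 0.0387, GC correction with replicate block gave Col6a6 0.0387. With 1 library left out, log2 fold changes of TAC without drug crossed 0 in Col6a2 (-0.30 to 0.016), Col6a3 (-0.25 to 0.0858) and Col5a3 (-0.38 to 0.15). With 1 library left out, log2 fold changes of pimobendan after TAC crossed 0 in Col1a1 (-0.22 to 0.15), Col3a1 (-0.13 to 0.49), Col5a1 (-0.0915 to 0.15), Col6a1 (-0.17 to 0.15), Col6a2 (-0.32 to 0.0638), Col15a1 (-0.59 to 0.10) and Col5a3 (-0.22 to 0.36). With 1 library left out, log2 fold changes of pimobendan after sham crossed 0 in Col1a2 (-0.0987 to 0.25), Col5a2 (-0.0122 to 0.34), Col8a1 (-0.17 to 0.11), Col14a1 (-0.13 to 0.25) and Col18a1 (-0.0364 to 0.31). With 1 library left out, log2 fold changes of TAC under pimobendan crossed 0 in Col14a1 (-0.18 to 0.14) and Col6a6 (-0.083 to 0.00070). Over the whole table, calls in pimobendan after TAC went from 373 to 1170 with TPM and to 1 with the replicate block. The absolute depth is unknown, so the counting error of the low chains cannot be given.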

Other observations

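Below the limit for testing, 2 chains are described that were chosen after their values were seen. Col4a3, a basement membrane chain, had 0.46, 0.5 and 0.45 in Sham+control, 0.52, 0.63 and 0.5 in Sham+pimobendan, 0.28, 0.29 and 0.3 in TAC+control, with 0.52, 0.62 and 0.46 in TAC+pimobendan (FPKM). Its 3 TAC+control libraries lay below the other 9, which held for no other chain of the 42 and for 2.23% of the 17052 genes in the table. Fitted without the filter on low values, its log2 fold change was -0.19 ± 0.050, adjusted p = 0.595 in TAC without drug and 0.25 ± 0.050, adjusted p = 0.0651 in pimobendan after TAC (limma). Col27a1, a fibrillar chain, had 1, 0.95 and 0.99 in Sham+control, 0.45, 0.62 and 0.79 in Sham+pimobendan, 0.71, 0.5 and 0.75 in TAC+control, with 0.73, 0.94 and 0.66 in TAC+pimobendan. Its log2 fold change was -0.29 ± 0.093, adjusted p = 0.94 in pimobendan after sham, and the interaction was 0.40 ± 0.13, adjusted p = 0.178 (limma). None of these passed the test.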
